A study of Danio rerio with 19 samples.

Results

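The genes described here are known for their part in the breakdown and rebuilding of skeletal muscle: fbxo32, trim63a, trim63b, foxo1a, foxo3a, foxo3b, klf15, mstnb and myog. They were taken by their gene names in the deposited count tables. Of the 9 genes, 8 were listed among the 26507 genes of those tables, and trim63b, which encodes a second MuRF1, was not analysed here. Messenger RNA was sequenced from whole zebrafish larvae kept in 5 conditions. Atorvastatin, a statin that inhibits HMG-CoA reductase, was given at 1 µg/L (AVS high, 4 libraries) or at 100 ng/L (AVS low, 4 libraries). Afidopyropen, a TRPV channel insecticide, was given at 1 µg/L (Afid high, 4 libraries) or at 100 ng/L (Afid low, 3 libraries). The control larvae (4 libraries) were kept in the medium that the labels call ERM. The sources used here do not give the age or strain of the larvae, the number behind a library, or whether replicates were separate tanks or clutches. All p-values therefore rest on library-to-library spread, some of which may be technical.

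In vertebrate muscle, insulin and IGF1 signal through AKT, which keeps the FoxO transcription factors out of the nucleus. When that signal is weak, FoxO factors switch on a small set of atrophy genes, chief among them the ubiquitin ligases atrogin-1 (fbxo32) and MuRF1 (trim63), which mark muscle proteins for the proteasome. Myostatin, a secreted relative of TGF-beta, restrains muscle growth, and myogenin is a transcription factor that drives myoblasts to differentiate. KLF15 is switched on by glucocorticoids in mammals and promotes breakdown of branched-chain amino acids. Statins can harm muscle in patients, and lovastatin was reported to induce atrogin-1 in cultured muscle cells and zebrafish embryos, which is the question these genes carry into an atorvastatin exposure.

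None of the 8 genes differed between AVS high, AVS low or Afid low and the control past an adjusted p of 0.05 in edgeR. The test was the quasi-likelihood test with Benjamini-Hochberg adjustment over all genes tested. It called 0 of 18929 genes in AVS high, 0 of 19267 in AVS low and 0 of 19399 in Afid low, so the result is not particular to the 8. The ligase gene fbxo32 averaged 189 CPM ± 48.8 in AVS high (SD, n = 4), 175 CPM ± 14.5 in AVS low (SD, n = 4), 224 CPM ± 51.0 in Afid low (SD, n = 3) and 209 CPM ± 26.0 in the control (SD, n = 4). CPM are reads of the gene relative to all reads in genes (counts per M), scaled between libraries by TMM. Group means were widest apart for myog. It averaged 5.34 CPM ± 1.41 in AVS high (SD, n = 4), and 3.51 CPM ± 0.646 was its mean in control larvae (SD, n = 4), with an adjusted p of 0.591 in edgeR. The comparisons share the same 4 control libraries, so they are not independent of each other.

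Counts per library came with the AVS high, AVS low and Afid low tables, in 15 libraries of 8.63 to 18.6 M reads in genes. The 8 genes together took between 0.0786% and 0.127% of those reads. All 8 passed the filter on low counts in each comparison, yet trim63a had 15 to 57 reads per library, mstnb 10 to 66 and myog 25 to 85, so their values are less precise than those of the other 5. Control replicate 2 stood apart from the other control libraries: its intestine markers summed to 499 CPM, its exocrine pancreas markers to 2613 CPM and its liver markers to 2409 CPM, the lowest of the control libraries. Its neuron markers, at 4778 CPM, were the highest of that group. In the other 3 control libraries these sums were 1706 to 2388 CPM for intestine (15 of 15 markers listed), 8917 to 19204 CPM for exocrine pancreas (16 of 16), 4891 to 6362 CPM for liver (15 of 15) and 2972 to 3519 CPM for neuron (15 of 15). Control replicate 4 was the highest of its group for intestine, exocrine pancreas and liver markers and the lowest for neuron markers. Its exocrine pancreas sum of 19204 CPM lay far above those of control replicates 1 and 3, at 8917 and 9409 CPM. Among the AVS low libraries, replicate 1 was apart from its group in several of the genes below. Fold changes without control replicate 2 or without AVS low replicate 1 are given beside the genes whose values they move most. A whole larva holds many tissues, and fewer cells of a type cannot be told apart here from less RNA per cell. Reads of the 8 genes were not assigned to a tissue. Their values are those of the whole larva and need not be those of its muscle.

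On the authors' FPKM scale (reads relative to transcript length and library size), fbxo32 was the most abundant of the 8, at 109.6 FPKM ± 20.3 (SD, n = 15), and it stood above foxo3b in 15 of 15 libraries. Next came foxo3b at 70.01 FPKM ± 12.4, foxo3a at 55.6 FPKM ± 11.04 and klf15 at 40.02 FPKM ± 8.54 (SD, n = 15 each). The ranges of these 3 genes overlapped: foxo3b was above foxo3a in 11 of 15 libraries and foxo3a above klf15 in 12. foxo1a lay lower, at 18.5 FPKM ± 2.70, and far below it came trim63a at 1.63 FPKM ± 0.592 (SD, n = 15 each). Between foxo1a, at 13.6 FPKM or more, and trim63a, at 2.59 FPKM or less, the ranges left a gap, the only one between neighbours in this order. mstnb averaged 1.12 FPKM ± 0.456 and myog 0.733 FPKM ± 0.252 (SD, n = 15 each), and mstnb was above myog in 13 of 15 libraries. Of the 2 ubiquitin ligase genes with values, fbxo32 was between 42.6 and 121 times trim63a in FPKM, depending on the library. The second MuRF1 gene, trim63b, is not part of this ratio.

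**Figure D1:**
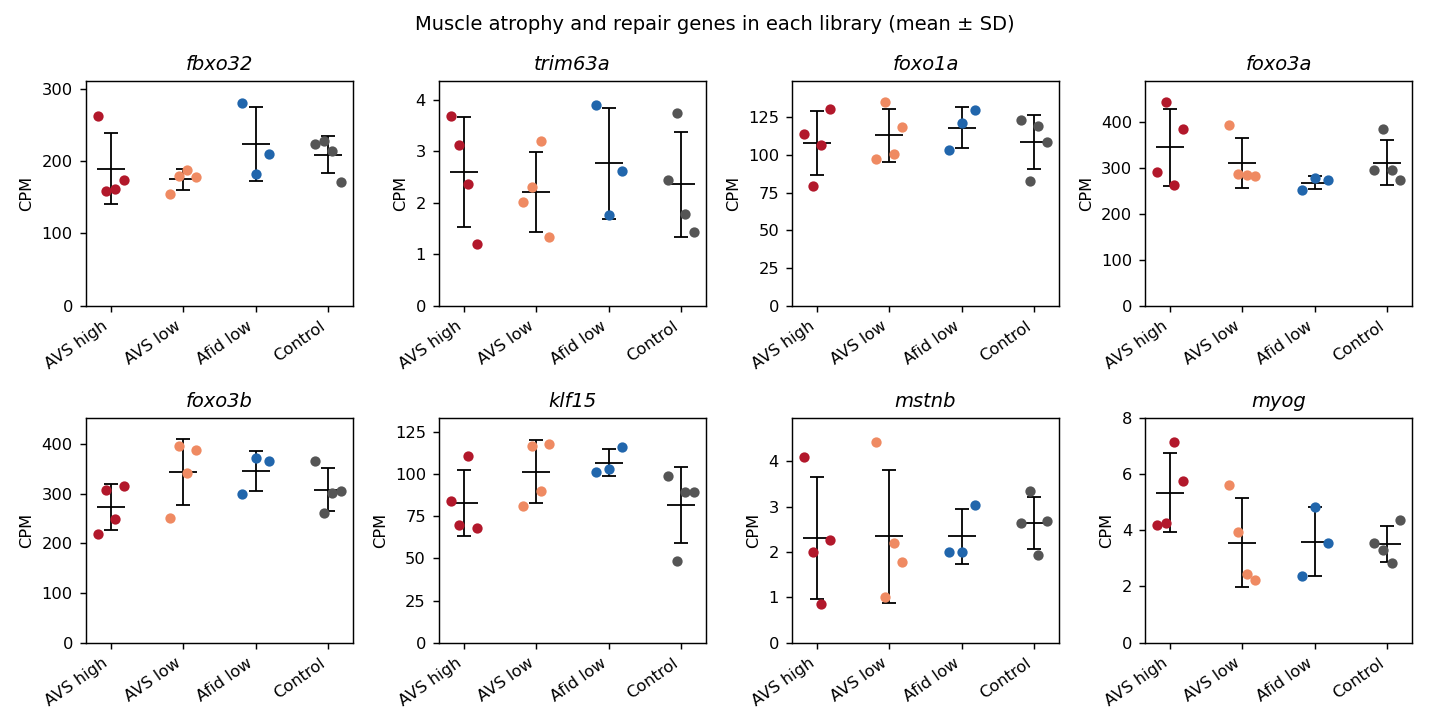
Expression of the 8 genes in each of the 15 libraries with counts (y axis, CPM after TMM scaling, linear and starting at 0) by group, with AVS high leftmost and the control rightmost. Points are libraries and bars are the group mean with its SD; every exposed group overlaps the control in every panel except klf15 in Afid low, at 101 to 116 CPM, against the control, at 48.6 to 99.1 CPM.

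The gene fbxo32 (ENSDARG00000040277) lies on chromosome 16 from 25259313 to 25272633 on the plus strand, in the coordinates of the deposited tables, whose genome build the sources used here do not name. It encodes the F-box subunit that brings substrates to the atrogin-1 ubiquitin ligase. Its level was 262, 159, 162 and 175 CPM in the 4 AVS high libraries and 154, 179, 188 and 178 CPM in the 4 AVS low libraries. In the 3 Afid low libraries it was 280, 181 and 210 CPM, against 224, 228, 213 and 171 CPM in the 4 control libraries. The spread within AVS high came from replicate 1, far above the other 3, and every group overlapped the control. Against the control, its log2 fold change was −0.14 in AVS high (SE 0.19), −0.26 in AVS low (SE 0.15) and 0.11 in Afid low. On the fold scale the 95% intervals ran from 0.684 to 1.2 in AVS high, from 0.663 to 1.06 in AVS low and from 0.818 to 1.43 in Afid low. The adjusted p in edgeR was 0.832 in AVS high and 0.562 in AVS low. Without AVS high replicate 1 the AVS high value was −0.34, with an unadjusted p of 0.0836 and an adjusted p of 0.451 in edgeR, the lowest of a range of 0.451 to 0.986 over the alternatives. Without Afid low replicate 1 the Afid low value was −0.084. Without control replicate 4, the lowest control, the AVS low value was −0.34 with an unadjusted p of 0.0436 in edgeR. Control replicate 4 and AVS high replicate 1 were singled out by their fbxo32 values, so the p-values without them are no independent support. The adjusted p of the AVS low value was between 0.41 and 1 over the alternatives run. Leaving out each library in turn gave −0.34 to −0.086 in AVS high and −0.34 to −0.20 in AVS low.

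The gene trim63a (ENSDARG00000028027, chromosome 6, 15651977 to 15653494, minus strand) encodes MuRF1, a RING-finger ligase of the sarcomere. It was read at 3.68, 3.12, 2.36 and 1.21 CPM in AVS high and at 2.01, 2.31, 3.19 and 1.33 CPM in AVS low. Afid low held 3.90, 1.77 and 2.62 CPM, against 2.45, 3.74, 1.79 and 1.44 CPM in the control. The groups covered much the same low range, from 1.21 to 3.68 CPM inside AVS high alone. In log2 terms the fold change was 0.12 in AVS high (SE 0.44), −0.09 in AVS low (SE 0.41) and 0.24 in Afid low. With so few reads the 95% interval of the fold was wide, from 0.564 to 2.11 in AVS high, from 0.509 to 1.73 in AVS low and from 0.614 to 2.26 in Afid low, so a fold of 2 lay inside the interval of AVS high. Without control replicate 2, the highest control, the log2 fold change was 0.43 in AVS high, 0.22 in AVS low and 0.54 in Afid low. These were the upper ends: leaving out each library in turn gave values down to −0.10, −0.31 and −0.090 in these groups, so the sign was not stable.

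Among the FoxO factors, foxo1a (ENSDARG00000099555, chromosome 15, 3284416 to 3379041, plus strand) had the closest group means. It stood at 114, 79.4, 107 and 130 CPM in AVS high and at 97.3, 135, 101 and 119 CPM in AVS low. Its Afid low libraries held 103, 121 and 130 CPM, against 123, 82.9, 119 and 109 CPM in the control. The highest group mean was 1.1 times the lowest, and the 2 lowest libraries were AVS high replicate 2 and control replicate 2. Its log2 fold change was −0.01 in AVS high, with a 95% interval of the fold from 0.754 to 1.31, 0.06 in AVS low and 0.14 in Afid low. Without control replicate 2 these were −0.12 in AVS high, −0.053 in AVS low and 0.025 in Afid low.

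Zebrafish carry a pair of FOXO3 genes, foxo3a (ENSDARG00000023058, chromosome 17, 6793001 to 6810785, plus strand) and foxo3b (ENSDARG00000042904, chromosome 20, 32286765 to 32332736, minus strand). For foxo3a the AVS high libraries held 291, 443, 262 and 384 CPM and the AVS low libraries 393, 287, 285 and 282 CPM. Afid low held 251, 278 and 274 CPM, against 295, 384, 295 and 273 CPM in the control. In AVS low, replicate 1 was far above the other 3, and in the control replicate 2 was the highest. The log2 fold change of foxo3a was 0.15 in AVS high (SE 0.19; 95% interval of the fold 0.827 to 1.48), −0.00 in AVS low and −0.21 in Afid low (SE 0.17; 0.673 to 1.11). Without control replicate 2 it was 0.27 in AVS high, 0.11 in AVS low and −0.09 in Afid low, and without AVS low replicate 1 it was −0.13 in AVS low. All 3 Afid low libraries were below the control mean, and the ranges of those 2 groups still overlapped.

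For foxo3b the AVS high libraries held 219, 308, 249 and 316 CPM and the AVS low libraries 252, 395, 342 and 387 CPM. Afid low held 299, 372 and 366 CPM, against 366, 260, 301 and 305 CPM in the control. AVS low replicate 1 and control replicate 2, the highest of their groups in foxo3a, were here the lowest. The other groups were not turned: AVS high replicates 2 and 4 were the highest, and Afid low replicate 1 the lowest of its group, in both genes. The log2 fold change of foxo3b was −0.17 in AVS high (SE 0.17; 95% interval of the fold 0.684 to 1.15), 0.16 in AVS low and 0.18 in Afid low. None of these passed the test. Without control replicate 2 they were −0.24 in AVS high, 0.085 in AVS low and 0.10 in Afid low, and without AVS low replicate 1 the AVS low value was 0.28.

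The ratio of foxo3b to foxo3a in FPKM is free of the scaling between libraries. It was 0.936, 0.864, 1.18 and 1.02 in AVS high, 0.796, 1.72, 1.49 and 1.71 in AVS low, 1.48, 1.67 and 1.66 in Afid low, and 1.55, 0.843, 1.27 and 1.39 in the control. Group means were 1.00 ± 0.135 in AVS high (SD, n = 4), 1.43 ± 0.433 in AVS low (SD, n = 4), 1.6 ± 0.107 in Afid low (SD, n = 3) and 1.26 ± 0.301 in the control (SD, n = 4). The 2 lowest ratios of all belonged to AVS low replicate 1 and control replicate 2, the libraries already described as apart from their groups, so the ranges of both groups overlap that of AVS high. The ratio was computed after the values of the 2 genes were known, and it has no test.

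**Figure D2:**
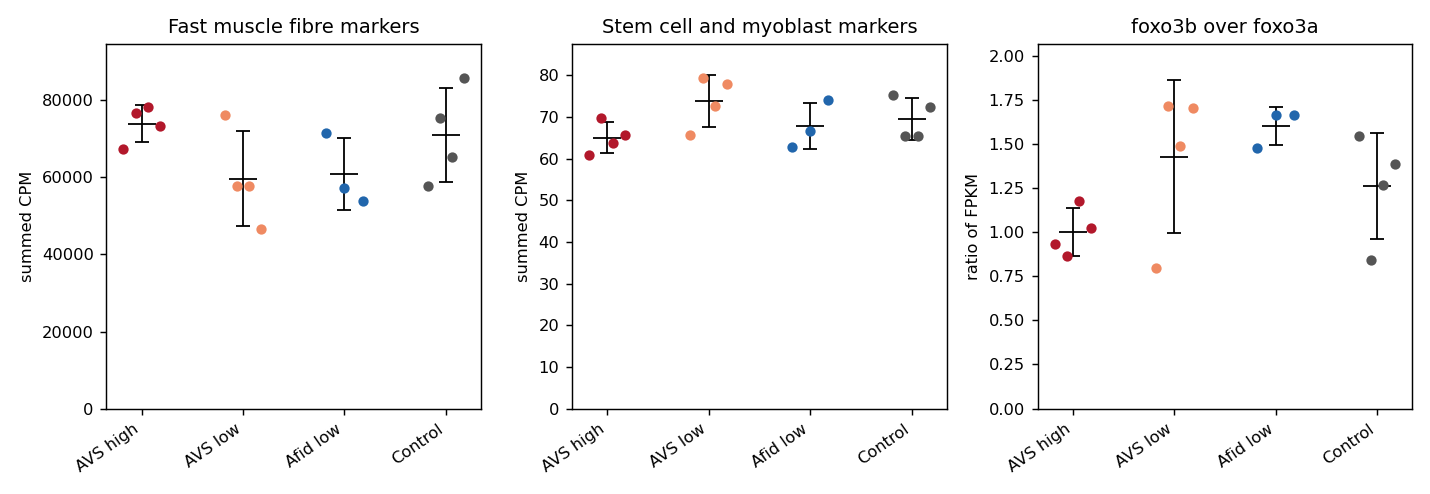
Summed CPM of the fast muscle fibre markers (left) and of the muscle stem cell and myoblast markers (middle), and the ratio of foxo3b to foxo3a in FPKM (right, no unit), in each library, by group with AVS high leftmost and the control rightmost; bars are the group mean with its SD. AVS high spans 0.864 to 1.18 in the ratio, and 1 AVS low library and 1 control library lie below that range.

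The transcription factor gene klf15 (ENSDARG00000091127, chromosome 23, 35187683 to 35195908, minus strand) had its highest group mean in Afid low. Levels were 84.1, 69.7, 111 and 68.1 CPM in AVS high and 81.1, 117, 90.1 and 118 CPM in AVS low. They were 101, 103 and 116 CPM in Afid low, against 99.1, 48.6, 89.7 and 89.6 CPM in the control. All 3 Afid low libraries lay above all 4 control libraries, by a margin of 1 library at 101 CPM over 1 at 99.1 CPM, and control replicate 2 was far below its group. Its log2 fold change was 0.40 in Afid low (SE 0.22; 95% interval of the fold 0.947 to 1.84) with an unadjusted p of 0.0937 and an adjusted p of 0.720 in edgeR. In AVS low it was 0.31 (SE 0.22; 0.890 to 1.73), with an adjusted p of 0.619 in edgeR, and in AVS high it was 0.03 (SE 0.23; 0.724 to 1.43). Without control replicate 2 the values were −0.16 in AVS high, 0.13 in AVS low and 0.21 in Afid low. The part of the tissue makeup of that library in these values was not tested.

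The gene mstnb (ENSDARG00000069133, chromosome 9, 40939336 to 40943137, plus strand) encodes a myostatin. It was measured at 4.10, 2.00, 0.842 and 2.27 CPM in AVS high and at 4.42, 1.00, 2.21 and 1.77 CPM in AVS low. Afid low held 2.00, 2.00 and 3.04 CPM, against 2.63, 3.35, 1.94 and 2.69 CPM in the control. The control libraries lay close together, while single libraries of both AVS groups went above and below them. For mstnb the log2 fold change was −0.21 in AVS high (SE 0.45; 95% interval of the fold 0.443 to 1.68), −0.17 in AVS low and −0.16 in Afid low. It was −0.68 in AVS low without AVS low replicate 1. Without control replicate 2 it was −0.078 in AVS high, −0.045 in AVS low and −0.033 in Afid low.

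The gene myog (ENSDARG00000009438, chromosome 11, 22592935 to 22605981, minus strand) encodes myogenin. It was at 4.20, 4.25, 7.16 and 5.74 CPM in AVS high and at 5.63, 3.94, 2.45 and 2.22 CPM in AVS low. Afid low held 2.38, 4.84 and 3.54 CPM, against 3.55, 3.28, 2.84 and 4.37 CPM in the control. A pair of AVS high libraries lay above every control library, and the other pair lay just below the highest control. In AVS high the log2 fold change was 0.61 (SE 0.30; 95% interval of the fold 0.976 to 2.38), with an unadjusted p of 0.0618 and an adjusted p of 0.591 in edgeR. Leaving out each library in turn gave 0.42 to 0.71. The lowest value was without AVS high replicate 3 (unadjusted p = 0.214 in edgeR) and the highest without control replicate 4 (unadjusted p = 0.0504 in edgeR). In the authors' deposited table the same gene had a log2 fold change of 0.62 with a p of 0.0499 and an adjusted p of 0.493, the only one of the 8 with a p under 0.05 there, against 7.82% of all genes of the table. It was 0.03 in AVS low (SE 0.35; 0.603 to 1.72) and 0.05 in Afid low. Without AVS low replicate 1 the AVS low value was −0.28.

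**Figure D3:**
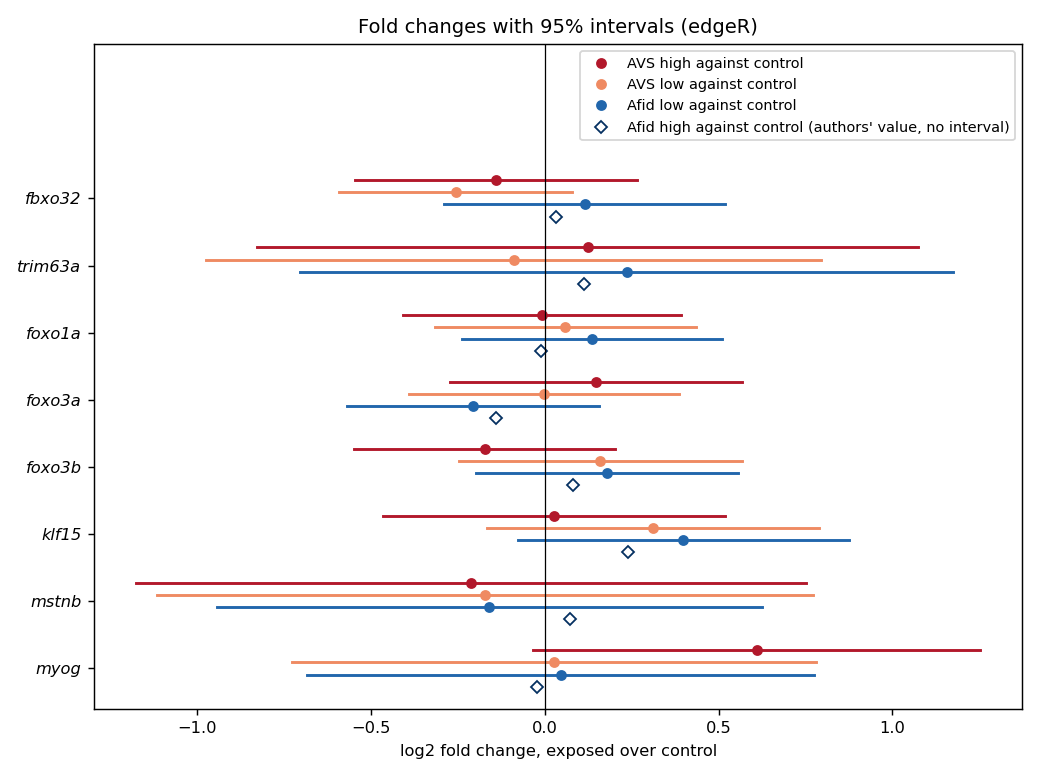
Log2 fold change of each of the 8 genes against the control (x axis) in AVS high, AVS low and Afid low, from edgeR, with 95% intervals as bars. Open diamonds are the authors' values for Afid high, which have no interval. The interval of every gene crosses 0 in every edgeR comparison shown, and the point farthest from 0 is myog in AVS high at 0.61.

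In AVS high, 0 of 8 passed the adjusted p of edgeR, beside 0% of the 18929 genes tested, and 0 of 8 had an unadjusted p under 0.05, against 8.75% of all genes. DESeq2 and limma-voom also called 0 of the 8, with 61 genes of the whole table called by DESeq2. Of the 8, 4 were higher and 4 lower in AVS high than in the control, against 49.8% of all genes higher, with a median log2 fold change of 0.01 for the 8 and −0.00 for all genes. The AVS high and control libraries overlapped in all 8, and did not in 5.19% of all genes. The median size of the change, whatever its sign, was 0.14 for the 8 genes and 0.24 for all genes on the log2 scale. All genes were not matched to the 8 by expression level, so these sizes are not a like comparison.

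In AVS low, edgeR called 0 of 8 and 0% of 19267 genes, and 0 of 8 had an unadjusted p under 0.05, against 10.1% of all genes. DESeq2 and limma-voom called 0 of the 8 as well, and DESeq2 called 43 genes in all. Here too 4 were higher and 4 lower than in the control, against 49.2% of all genes higher, and the median log2 fold change was 0.01 for the 8 and −0.01 for all genes. The median size of the change was 0.12 for the 8 genes and 0.25 for all genes on the log2 scale, again without matching by expression level. For AVS low, 0 of the 8 had a p under 0.05 in the authors' deposited table, against 9.2% of its genes. The AVS low and control libraries overlapped in all 8, and did not in 4.39% of all genes.

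In Afid low, edgeR called 0 of 8 and 0% of 19399 genes, and 0 of 8 had an unadjusted p under 0.05, against 7.05% of all genes. DESeq2 and limma-voom called 0 of the 8, and DESeq2 called 15 genes in all. Higher than the control were 6 of the 8, against 50.8% of all genes, and lower were foxo3a and mstnb; the median log2 fold change was 0.13 for the 8 and 0.01 for all genes. Separation of the groups occurred in 1 of 8, klf15, against 8.86% of all genes.

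For Afid high only the authors' values were used, with no values per library. In the authors' deposited table klf15 had a log2 fold change of 0.24 (p = 0.298) and foxo3a one of −0.14 (p = 0.381) in Afid high. The authors' deposited table gave fbxo32 a log2 fold change of 0.03, trim63a 0.11, foxo1a −0.01, foxo3b 0.08, mstnb 0.07 and myog −0.02. There 0 of 8 had a p under 0.05, against 7.03% of its 25853 genes, and the median log2 fold change was 0.05 for the 8 and 0.03 for all genes. For Afid low the authors' deposited table gave klf15 0.39 (p = 0.103) and foxo3a −0.22 (p = 0.199), with 0 of 8 genes at a p under 0.05 and 6.06% of all genes.

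The 2 atorvastatin doses were compared in a fit of all 15 libraries. Of the 8 genes, edgeR called 0 and gave 0 an unadjusted p under 0.05, against 0% and 5.44% of 20144 genes, and DESeq2 and limma-voom called 0 of the 8. Of the 8, 4 were higher in AVS high than in AVS low, against 51.1% of all genes, and the 2 groups overlapped in all 8, which they did not in 2.03% of all genes. Higher in AVS high than in AVS low was myog, by a log2 difference of 0.58 (SE 0.33; 95% interval of the fold 0.926 to 2.41; unadjusted p = 0.0948 and adjusted p = 0.934 in edgeR), which did not pass. Lower was foxo3b, by a log2 difference of −0.33 (SE 0.18; 0.614 to 1.02; unadjusted p = 0.0731 and adjusted p = 0.927 in edgeR), which did not pass either. klf15 had a log2 difference of −0.29 with an unadjusted p of 0.187 in edgeR. Without AVS low replicate 1 the log2 difference was −0.48 for foxo3b, with an unadjusted p of 0.0138 and an adjusted p of 0.307 in edgeR, where the alternatives run gave adjusted p-values from 0.301 to 1. The same omission gave 0.87 for myog, with an unadjusted p of 0.0178 and an adjusted p of 0.330 in edgeR. That was the lowest of its adjusted p-values, which ran from 0.330 to 1 over the alternatives. Leaving out each library in turn gave −0.48 to −0.21 for foxo3b and 0.42 to 0.87 for myog. AVS low replicate 1 was singled out by its values in these same genes, so the p-values without it are no independent support. The test for any difference among the 4 groups with counts called 0 of 8 in edgeR, with 0 of 8 at an unadjusted p under 0.05 against 9.83% of all genes. Its smallest p among the 8 was that of myog, at 0.213, with an adjusted p of 0.597 in edgeR.

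In the order of group means, 23 of the 24 pairs of neighbouring groups overlapped in range. The exception was foxo3a, whose AVS low libraries, at 282 to 393 CPM, lay above its Afid low libraries, at 251 to 278 CPM. The margin was narrow, 282 CPM over 278 CPM. The share of all genes with such a gap between AVS low and Afid low was not computed. The highest group mean was from 1.1 times the lowest, for foxo1a, to 1.52 times, for myog.

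The wider pathways were followed in 5 lists of 150 gene symbols, of which 141 were listed. They hold FoxO factors with their insulin and AKT inputs, FoxO target genes of degradation, myostatin and activin signalling, myogenic regulators, and the glucocorticoid receptor with KLF15-related genes. Genes that passed the adjusted threshold in edgeR numbered 0 of 133 tested in AVS high, 0 of 134 in AVS low and 0 of 135 in Afid low. At an unadjusted p under 0.05 there were 13 in AVS high, 3 higher and 10 lower than the control, a share of 9.77% against 8.75% of all genes. AVS low had 4, of which 1 was higher, a share of 2.99% against 10.1% of all genes. Afid low had 9, of which 4 were higher, a share of 6.67% against 7.05% of all genes. Between the AVS doses 9 of 135 had such a p, 1 higher and 8 lower in AVS high, a share of 6.67% against 5.44% of all genes. Most genes with such a p over the whole table were also lower in these 2 comparisons. In AVS high against the control 637 were higher and 1020 lower, and between the doses 280 were higher and 815 lower. The split was 991 higher and 958 lower in AVS low, and 697 higher and 671 lower in Afid low. By the adjusted p of the authors' deposited tables, 0 genes of the lists were called in any of the 4 exposed groups. Few genes were called there at all: 61 of 25473 in AVS high, 43 of 25642 in AVS low, 15 of 25686 in Afid low and 9 of 25853 in Afid high. In Afid high the adjusted p of 89.2% of all genes was read as not given, so most genes could not be called. The genes named below are those of smallest p in each list and comparison, and none passed. Because they were chosen by p, a gap between their groups and the control adds no support. Of all genes, groups did not overlap in 5.19% in AVS high, 4.39% in AVS low and 8.86% in Afid low.

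**Figure D4:**
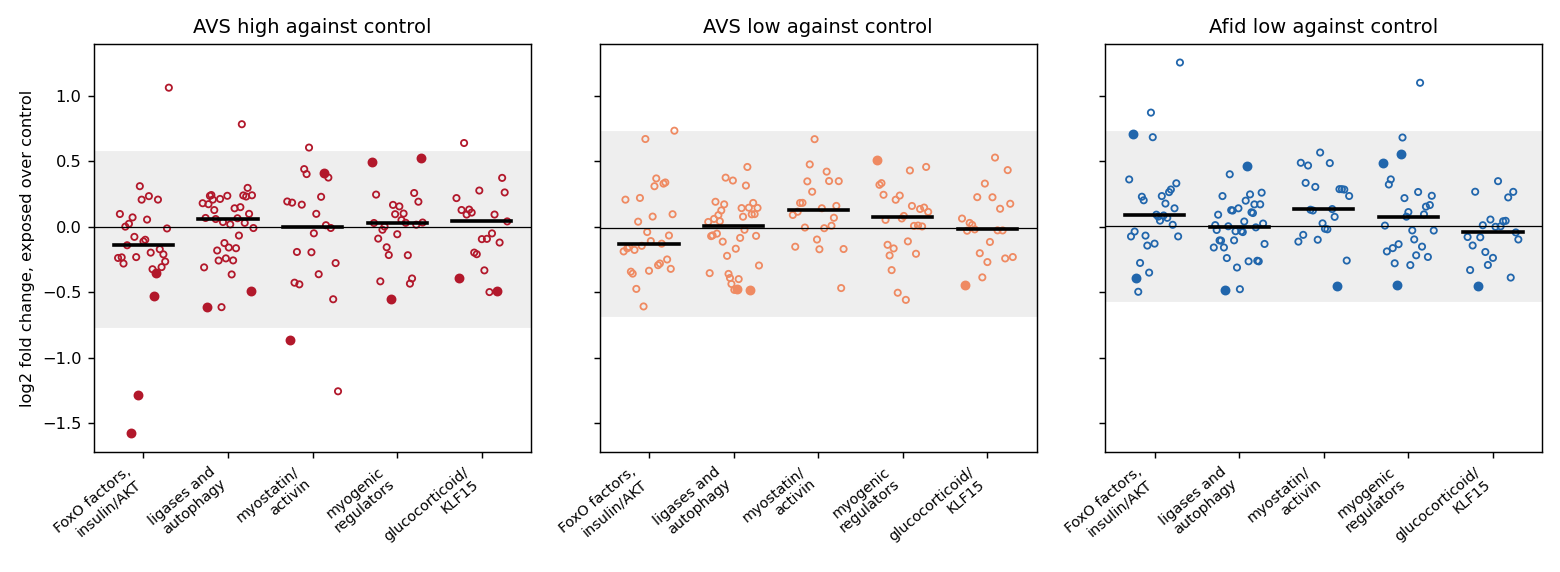
Log2 fold change against the control (edgeR) of each tested gene of the 5 pathway lists in AVS high, AVS low and Afid low, one point a gene, filled where the unadjusted p is under 0.05, with the list median as a bar and the range from the 5th to the 95th percentile of all genes shaded. The list medians lie between −0.14 and 0.13, while single genes reach −1.58.

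The list of FoxO factors and their inputs had 10 of 29 genes higher and 19 lower in AVS high, with a median log2 fold change of −0.14. In AVS low 11 of 29 were higher, with a median of −0.13, and in Afid low 19 of 29, with a median of 0.09. The insulin receptor substrate irs2a, which passes the signal to AKT, was at 105, 82.5, 94.0 and 79.1 CPM in AVS high and 73.4, 99.5, 132 and 125 CPM in AVS low. Afid low held 136, 145 and 157 CPM, against 152, 119, 130 and 120 CPM in the control. Its 4 AVS high libraries lay below all 4 control libraries, and AVS low replicate 1 was lower still. For irs2a the log2 fold change in AVS high was −0.53 (SE 0.15; unadjusted p = 0.00438, adjusted p = 0.410 in edgeR).

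The second FOXO1 gene, foxo1b, which is not among the 8, was scarce. It was read at 1.16, 0.625, 1.18 and 0.453 CPM in AVS high and at 1.21, 1.94, 2.04 and 2.22 CPM in AVS low. Afid low held 2.67, 2.69 and 3.61 CPM, against 3.31, 1.71, 1.34 and 3.87 CPM in the control. The AVS high libraries again lay below all control libraries, with a log2 fold change of −1.58 (SE 0.51; unadjusted p = 0.00808, adjusted p = 0.437 in edgeR). The growth factor gene igf1 had a log2 fold change of −1.29 in AVS high, with 0.625 to 1.68 CPM in AVS high and 1.27 to 4.68 CPM in the control. In AVS low the 3 genes of smallest p were the insulin receptor insra (0.31), mtor (0.33) and the translation repressor eif4ebp1 (−0.34). In Afid low they were eif4ebp1 (−0.39), akt3a (0.71) and rptor (1.26). The gene rptor was scarce, at 1.34 to 2.86 CPM in Afid low and 0.197 to 1.56 CPM in the control. Those ranges overlapped (SE 0.60; unadjusted p = 0.0584, adjusted p = 0.700 in edgeR).

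Of the ubiquitin ligases and autophagy genes known as FoxO targets in mammalian muscle, 22 of 36 were higher in AVS high, with a median log2 fold change of 0.06. The autophagy kinase gene ulk1b was at 25.3, 26.4, 26.4 and 28.0 CPM in AVS high, against 43.9, 29.3, 40.3 and 36.2 CPM in the control. No AVS high library reached the lowest control, and the log2 fold change was −0.49 with an unadjusted p of 0.0100 in edgeR. The mitophagy receptor gene bnip3la had a log2 fold change of −0.61 and the autophagosome gene map1lc3b one of −0.36 in AVS high. In AVS low, map1lc3b (−0.48), the MuRF relative trim55b (−0.48) and gabarapa (−0.36) had the smallest p of the list, and 18 of 36 genes were higher. In Afid low, 18 of 36 were higher, and the named genes were the cathepsin gene ctsl.1 (−0.48), pdk4 (0.46) and gadd45ab (−0.48).

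For myostatin and activin signalling, 11 of 22 genes were higher in AVS high, 15 of 22 in AVS low and 15 of 22 in Afid low. The type I receptor gene acvr1bb was at 9.46, 4.0, 10.5 and 7.32 CPM in AVS high, against 18.1, 9.12, 13.9 and 16.4 CPM in the control, where replicate 2 was again the lowest. The log2 fold change of acvr1bb was −0.87 in AVS high and 0.49 in Afid low. The signal transducer smad4a had a log2 fold change of 0.41 in AVS high and 0.35 in AVS low, and the type II receptor acvr2ab one of −0.43 in AVS high. In AVS low the activin subunit gene inhbaa (0.67) and the protease gene bmp1a (0.35) were also named. In Afid low the inhibitory smad7 had a log2 fold change of −0.45 and acvr2ba one of 0.47.

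Myogenic regulators had 15 of 25 genes higher in AVS high, 18 of 26 in AVS low and 15 of 27 in Afid low. The muscle transcription factor gene mef2aa was at 11.4, 12.6, 18.0 and 8.68 CPM in AVS high and 11, 21.8, 25.8 and 27.3 CPM in AVS low. Afid low held 26.5, 25.6 and 29.1 CPM, against 19.1, 15, 22.1 and 18.2 CPM in the control. The Afid low libraries lay above every control library, and AVS low replicate 1 was again the lowest of its group. Its log2 fold change was −0.55 in AVS high (unadjusted p = 0.0345 in edgeR) and 0.56 in Afid low (unadjusted p = 0.00727, adjusted p = 0.688 in edgeR). The gene eya1, a cofactor of muscle transcription, had a log2 fold change of 0.49 in AVS high, 0.51 in AVS low and 0.49 in Afid low, comparisons that share a control of 21.3, 13.2, 22.2 and 23.2 CPM in which replicate 2 was the lowest. Other named genes were six4b (0.53) in AVS high, eya2 (0.32) and id2a (−0.33) in AVS low, and id2a (−0.45) in Afid low.

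The list of the glucocorticoid receptor and KLF15-related genes had 11 of 21 genes higher in AVS high, 10 of 21 in AVS low and 10 of 21 in Afid low. Its median log2 fold change was 0.04 in AVS high, −0.02 in AVS low and −0.04 in Afid low. The branched-chain aminotransferase gene bcat1 was at 42.5, 37.5, 27.7 and 32.6 CPM in AVS high and 31.9, 31.3, 38.5 and 33.2 CPM in AVS low. Afid low held 32.8, 37.4 and 38.4 CPM, against 48.9, 53.8, 42.5 and 38.6 CPM in the control. All libraries of AVS low and Afid low lay below all of the control, but by a very small margin. The highest were at 38.5 CPM in AVS low and 38.4 CPM in Afid low, against 38.6 CPM in the lowest control. The log2 fold change of bcat1 was −0.39 in AVS high, −0.45 in AVS low (unadjusted p = 0.0151 in edgeR) and −0.33 in Afid low. In Afid low the branched-chain dehydrogenase gene bckdhb was at 50.3, 45 and 47.4 CPM, against 57.2, 65.3, 61.5 and 78.2 CPM in the control, a log2 fold change of −0.45. The proline dehydrogenase genes prodha (−0.49, AVS high) and prodhb (−0.39, Afid low), klf9 (−0.33, AVS high), glula (−0.39, AVS low) and sgk1 (0.43, AVS low) completed the named genes.

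Skeletal muscle markers were abundant, with AVS low replicate 1 the highest of its group at 76292 CPM of fast fibre markers. The 28 fast muscle fibre marker symbols summed to 73913 CPM ± 4792 in AVS high (SD, n = 4), 59689 CPM ± 12257 in AVS low (SD, n = 4), 60894 CPM ± 9308 in Afid low (SD, n = 3) and 71041 CPM ± 12168 in the control (SD, n = 4). The ratio to the control was 1.04 in AVS high (two-sided exact permutation p = 0.657), 0.840 in AVS low (exact p = 0.286) and 0.857 in Afid low (exact p = 0.286), where the smallest p of 4 against 4 libraries is 0.0286. All 27 markers tested were higher in AVS high than in AVS low, with 0 called by edgeR, 0 at an unadjusted p under 0.05 and a median log2 difference of 0.21. Of the slow fibre markers 9 of 12 were higher in AVS high (median log2 difference 0.085), and of the heart muscle markers 6 of 7 (0.14). Over all genes 51.1% were higher in AVS high than in AVS low. Among markers of other tissues, 15 of 15 exocrine pancreas markers were higher in AVS high (median log2 difference 0.35), 11 of 14 liver markers (0.18) and 12 of 15 neuron markers (0.08). Of the intestine markers 5 of 15 were higher (median −0.16), and of the stem cell and myoblast markers 2 of 10 (median −0.23). Against the control, higher in AVS high were 15 of 15 exocrine pancreas, 14 of 15 intestine and 12 of 14 liver markers. Lower were 14 of 15 neuron markers. In AVS low these counts were 14 of 15, 15 of 15, 8 of 14 and 15 of 15. In Afid low they were 10 of 15, 14 of 15, 7 of 14 and 13 of 15. Of all genes, 49.8% were higher than the control in AVS high, 49.2% in AVS low and 50.8% in Afid low. edgeR called 0 of these, and the part of tissue makeup in the values of the 8 genes was not tested. Scaling the counts to muscle fibre markers in place of TMM moved the median of all genes to −0.33 between the AVS doses, and none of the 8 passed under that scaling either. Slow fibre markers averaged 1580 CPM in AVS high, 1455 in AVS low, 1455 in Afid low and 1436 in the control. Markers of muscle stem cells and myoblasts averaged 65 CPM in AVS high, 73.9 in AVS low, 67.9 in Afid low and 69.6 in the control. Heart muscle markers, of which 9 of 11 were listed, averaged 49.0 CPM in AVS high, 43.4 in AVS low, 50.8 in Afid low and 49.6 in the control.

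Across the 15 libraries the 8 genes did not vary as one block. Pearson's r of log2 CPM ran from −0.778, for foxo3a with klf15, to 0.645, for foxo1a with klf15, with a median of −0.148 over the 28 pairs. Only 3 pairs were above 0.5, among them the 2 ligases fbxo32 and trim63a at 0.576, and 4 were below −0.5, among them fbxo32 with myog at −0.529. For the 3 pairs Spearman's rank correlation was 0.579 (fbxo32 with trim63a), 0.479 (foxo1a with klf15) and 0.568 (foxo3b with klf15). For the 4 it was −0.689 (foxo3a with klf15), −0.621 (fbxo32 with myog), −0.493 (trim63a with foxo1a) and −0.214 (foxo1a with foxo3a). With the summed fast muscle fibre markers, r was −0.716 for foxo3b, −0.575 for klf15, −0.539 for foxo1a, 0.534 for myog and 0.388 for foxo3a, and between −0.149 and 0.139 for the other 3. Spearman's rank correlation with these markers was −0.721 for foxo3b, −0.632 for klf15, −0.593 for foxo1a, 0.532 for myog and 0.171 for foxo3a. It was −0.414 for fbxo32, 0.0964 for trim63a and 0.204 for mstnb. These are descriptions over libraries that share tissue makeup, depth and groups, and they have no p.

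**Figure D5:**
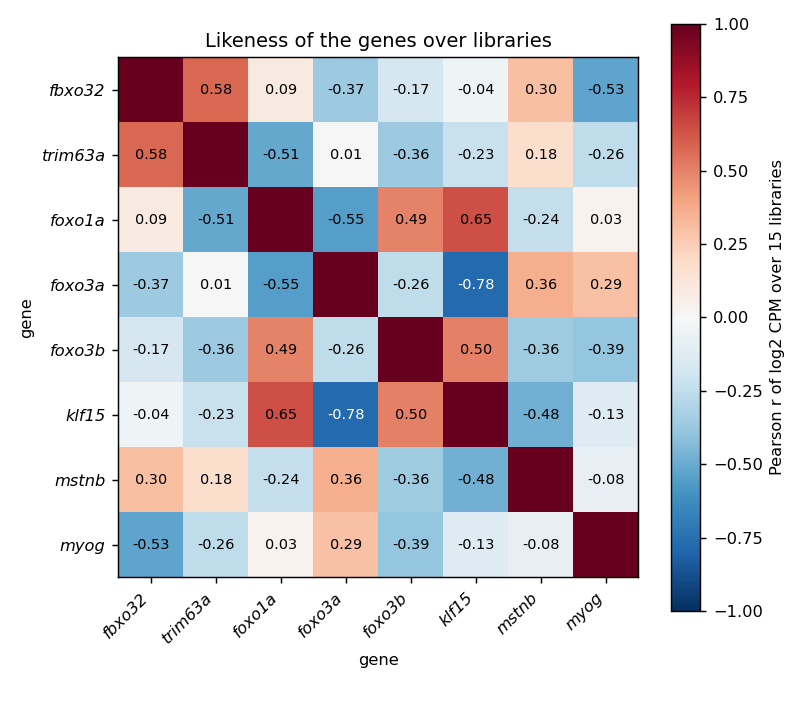
Pearson's r of log2 CPM over 15 libraries for each pair of the 8 genes, coloured from negative to positive. The cell of foxo3a with klf15 is the most negative at −0.778 and that of foxo1a with klf15 the most positive off the diagonal at 0.645.

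Genes whose levels followed each of the 8 most closely over the 15 libraries were found among all genes with a symbol and a mean of at least 5 CPM. For fbxo32 they were bada (r = 0.915) and uxt (0.914), and for trim63a bloc1s5 (0.855) and plekhb2 (0.813). foxo1a was followed by itga9 (0.863). The FOXO3 pair had different neighbours: foxo3a was followed by stxbp1a (0.963) and slc1a2b (0.962), and foxo3b by ptbp3 (0.966) and kmt2a (0.965). For klf15 they were rps6ka4 (0.938) and glsb (0.937), for mstnb opn9 (0.858, or 0.692 without the 2 libraries farthest from the median) and dusp2 (0.845), and for myog eif2b5 (0.916) and slc22a21 (0.882). Each search covered 13091 or 13092 genes, and the values of r are descriptions with no p.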

How the data were processed

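Per the submitters' processing notes, the authors ran fastp, HISAT2, featureCounts and DESeq2. Their versions, the strand setting and the build are not given in the sources. Raw read counts per gene stand, per the file headers, in 3 deposited tables, for both AVS doses and for Afid low. Each table repeats the 4 control libraries (0 genes differ), with FPKM values that the authors computed per gene length. All 4 deposited tables hold the authors' log2 fold change and p-value per gene; an adjusted p of 1, written for 89.2% of genes in the Afid high table, was read as not given. A further 29 columns of normalized values were not used. Per the labels' protocols, libraries were directional and made from poly(A)-selected RNA. Replicates were checked for duplicates and none was found (21 pairs, chi-square per degree of freedom at least 7.76).

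Counts were tested with edgeR 4.0.16 in R 4.3.3 (quasi-likelihood test, TMM, filterByExpr, Benjamini-Hochberg over all genes tested, threshold 0.05), each exposed group against the control on its own table. The AVS doses and the any-difference test used 1 fit of the 15 libraries over the 24886 genes common to the 3 count tables. The SE is the size of the log2 fold change over the square root of F. DESeq2 1.42.0, limma-voom (limma 3.58.1), other scalings, no filter, a replicate block and leaving out each library were alternatives. CPM per library were TMM-scaled over the 15 libraries; correlations used log2 CPM with a prior count of 2. The edgeR fits were also run on simulated data with planted changes larger than those of the 8 genes. That run does not measure the power to find changes as small as theirs.

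The genes and lists were chosen with earlier results of these data known. Named were the 8 genes, up to 3 genes of smallest p per pathway list and comparison with the control, and the 2 genes most like each of the 8 in Pearson's r. One gene that this rule names is not reported here.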

Additional observations from a re-analysis of the deposited data

Results flagged for a closer look

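The AVS high library of replicate 1 had 262 CPM of fbxo32, against 159 to 175 CPM in the other 3 AVS high libraries, a gap of 0.849 of the group's range and past Dixon's 95% critical value for 4 samples. The AVS low library of replicate 1 had 393 CPM of foxo3a, against 282 to 287 CPM in the other 3 (0.96 of the range). Exocrine pancreas markers summed to 6744 CPM in AVS low replicate 4, against 13588 to 14399 CPM in the other 3 AVS low libraries (0.894 of the range). Chance alone marks about 1 in 20 groups, and 24 groups of the 8 genes and 24 of the marker lists were looked at.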

How the results depend on the processing

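None of the 8 genes passed an adjusted p of 0.05 under any alternative run, and the smallest adjusted p was 0.301. Of 552 values of the 8 genes under alternatives, 501 kept their sign and 51 changed it. An unadjusted p under 0.05 was reached by 9 of these values. The count of genes called over the whole table, 0 in each comparison with edgeR, was 61 in AVS high, 43 in AVS low, 15 in Afid low, 5 between the AVS doses and 60 for any difference with DESeq2. It was 2 in AVS high without the low-count filter, and 0 to 1 in Afid low when leaving out 1 library (1 without control replicate 4). Sign changes among the log2 fold changes were as follows, and not all of them were close to 0. With RLE scaling, foxo1a in AVS high was 0.0027 and foxo3a in AVS low 0.0065. With DESeq2 these were 0.0025 and 0.0070. Without the filter foxo3a in AVS low was 0.0016, and with limma-voom myog in AVS low was −0.026. With the replicate block, trim63a was 0.035 and foxo3a 0.018 in AVS low, myog was −0.097 in Afid low and mstnb 0.087 between the doses; 0 of the 8 and 0 genes were called under the block. Deviations of same-numbered libraries correlated at −0.256 to 0.134, so the numbers were not taken as pairs. Samples correlated best with their own number in 1 of 4 AVS high libraries and 0 of 3 in each other comparison. Scaled to muscle fibre markers, klf15 was −0.087 in AVS high; trim63a was 0.13, foxo3a 0.23 and mstnb 0.0017 in AVS low; mstnb was 0.069 in Afid low; and fbxo32 was −0.22, trim63a −0.090 and foxo3a −0.17 between the doses. That scaling moved the median of all genes to −0.09 in AVS high, 0.24 in AVS low, 0.20 in Afid low and −0.33 between the doses. Leaving out 1 library, values in AVS high ran for trim63a from −0.10 to 0.43, foxo1a from −0.14 to 0.084, foxo3a from −0.018 to 0.27, mstnb from −0.63 to 0.058 and klf15 from −0.16 to 0.13. In AVS low they ran for myog from −0.28 to 0.19, foxo1a from −0.053 to 0.12, foxo3a from −0.13 to 0.11, mstnb from −0.68 to 0.086 and trim63a from −0.31 to 0.22. In Afid low they ran for fbxo32 from −0.084 to 0.25, trim63a from −0.090 to 0.54 and myog from −0.23 to 0.26. Between the doses they ran for fbxo32 from −0.059 to 0.20, foxo1a from −0.19 to 0.030, foxo3a from −0.017 to 0.29 and mstnb from −0.45 to 0.44. The fast muscle fibre ratio of AVS high to control was 0.981 as a share of reads and 0.979 to 1.12 when leaving out 1 library. For AVS low it was 0.864 as a share of reads and 0.762 to 0.902 when leaving out 1 library. For Afid low it was 0.948 as a share of reads, against 0.857 in CPM, and 0.783 to 0.920 when leaving out 1 library. The causes of these changes were not tested. Counts under 90 reads limit trim63a, mstnb and myog.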
